A study of Homo sapiens with 35 samples.

Results

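Chemokines are small secreted proteins that attract leukocytes along a gradient. The CXC chemokines CXCL1, CXCL2, CXCL3, CXCL5, CXCL6 and CXCL8 carry the ELR motif, bind the receptors CXCR1 and CXCR2 and draw neutrophils, whereas the CC chemokines CCL2, CCL3, CCL5 and CCL20 act mainly on monocytes, macrophages, T cells and dendritic cells. Many of these genes are classical targets of NF-κB, and in glioma they are known for the recruitment of myeloid cells. The 10 genes described here were chosen by symbol from the 62649 genes of the RNA count table. The 6 CXC genes lie in one cluster on chromosome 4, CCL2, CCL3 and CCL5 lie on chromosome 17, and CCL20 lies on chromosome 2 (hg38). In GENCODE v44, CXCL8 (ENSG00000169429) spans chr4:73740519-73743716, CXCL6 (ENSG00000124875) chr4:73836640-73849064 and CXCL1 (ENSG00000163739) chr4:73869393-73871308 on the plus strand. CXCL5 (ENSG00000163735) at chr4:73995642-73998677, CXCL3 (ENSG00000163734) at chr4:74036589-74038807 and CXCL2 (ENSG00000081041) at chr4:74097040-74099196 lie on the minus strand. CCL2 (ENSG00000108691) spans chr17:34255274-34257208 on the plus strand, CCL5 (ENSG00000271503) chr17:35871491-35880793 and CCL3 (ENSG00000277632) chr17:36088256-36090169 on the minus strand, and CCL20 (ENSG00000115009) chr2:227805739-227817564 on the plus strand.

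The cells were U-87 MG, a cell line established from a human glioblastoma. The cytokine TWEAK, of the TNF family, switches on non-canonical NF-κB signalling, during which the NFKB2 product p100 is cut to p52, a subunit that binds DNA. ETS1 is a transcription factor of the ETS family. RNA-seq was performed in 4 groups of 3 libraries, namely control cells left untreated, control cells given TWEAK, ETS1 knockdown (KD) cells given TWEAK and NFKB2 KD cells given TWEAK. TWEAK was used at 10 ng/ml for 48 h after starvation in Optimem, and KD cells without TWEAK were not analysed here. The KDs were made with lentiviral CRISPR guides in antibiotic-selected cells, for which no single-cell clone is described, and the labels do not name the guide behind the RNA-seq and RNA Pol II libraries. ChIP-seq peak lists, 2 per group, were available for p52 (control untreated, control TWEAK, ETS1 KD with guide 1 and TWEAK, ETS1 KD with guide 2 and TWEAK), ETS1 (control untreated and TWEAK) and RNA Pol II (the same 4 conditions as RNA-seq). Each RNA library held between 28384201 and 40192606 counts. RNA levels are given as CPM, which relate the read count to a library size scaled with TMM factors, and a gene was called when edgeR's quasi-likelihood test gave a Benjamini-Hochberg adjusted p under 0.05 over all 16879 genes tested. Of the 10 chemokines, 8 passed the filter on low counts, and CXCL1 and CXCL6 did not.

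The targeted genes followed their labels. ETS1 RNA was at 71.9, 73.1 and 87.6 CPM in the TWEAK-treated control libraries and at 28.2, 33.0 and 37.8 CPM in the ETS1 KD libraries (log2 fold change -1.23, SE 0.15, adjusted p = 0.0011 by edgeR). NFKB2 RNA was at 235, 289 and 346 CPM in the TWEAK-treated controls and at 75.6, 92.6 and 105 CPM in the NFKB2 KD libraries (log2 fold change -1.67, SE 0.18, adjusted p = 0.0034). Untreated controls had less of both transcripts, with 42.8 ± 1.99 CPM of ETS1 and 56.9 ± 8.77 CPM of NFKB2 (SD, n = 3). Against untreated cells, NFKB2 RNA in NFKB2 KD cells given TWEAK was at a log2 fold change of 0.68 (SE 0.17, adjusted p = 0.13). Among the untreated libraries, replicate 3 differed from replicates 1 and 2 with a chi-square per degree of freedom of 78.8 and 70.7, against 6.86 between replicates 1 and 2, and the TWEAK comparison called the same number of chemokines without it. Other groups held differences of similar size. NFKB2 KD replicate 2 differed from replicates 1 and 3 with 88.8 and 75.4, and TWEAK control replicate 1 from replicates 2 and 3 with 50.6 and 83.9. Of the markers checked, VIM, CD44 and FN1 were high, while 4 of the 5 glial genes, GFAP, S100B, SOX2 and AQP4, were each under 0.3 CPM on average in every group. The other one, OLIG2, was at 1.22 CPM on average in both untreated and TWEAK-treated controls, at 0.673 CPM in ETS1 KD and at 1.51 CPM in NFKB2 KD cells.

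The promoters of the CXC genes are shown because the p52 peaks of CXCL2 and CXCL3 described below centre on one element that all of them share. RefSeq entries (GRCh38.p14) were found for 8 of the 10 genes, without CCL2 and CCL5. Each line gives the 150 bases before the start site on the strand of the gene, with the letters GGAATTTCC, a κB-type element, in capitals. CXCL1, chr4:73869243-73869392, plus strand, and CXCL2, chr4:74099196-74099345, CXCL3, chr4:74038690-74038839, and CXCL5, chr4:73998678-73998827, on the minus strand, are followed by CXCL6, chr4:73836528-73836677, and CXCL8, chr4:73740419-73740568, on the plus strand.
CXCL1: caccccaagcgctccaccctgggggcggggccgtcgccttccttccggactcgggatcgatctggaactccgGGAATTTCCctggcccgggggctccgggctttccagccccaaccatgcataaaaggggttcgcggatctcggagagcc
CXCL2: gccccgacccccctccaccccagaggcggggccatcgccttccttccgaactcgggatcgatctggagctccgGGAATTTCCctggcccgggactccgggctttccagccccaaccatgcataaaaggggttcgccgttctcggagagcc
CXCL3: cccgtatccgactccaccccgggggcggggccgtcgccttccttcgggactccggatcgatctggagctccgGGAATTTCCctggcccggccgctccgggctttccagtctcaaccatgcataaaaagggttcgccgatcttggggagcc
CXCL5: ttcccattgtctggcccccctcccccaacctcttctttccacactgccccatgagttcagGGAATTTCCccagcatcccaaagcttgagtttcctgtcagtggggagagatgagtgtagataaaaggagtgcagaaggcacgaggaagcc
CXCL6: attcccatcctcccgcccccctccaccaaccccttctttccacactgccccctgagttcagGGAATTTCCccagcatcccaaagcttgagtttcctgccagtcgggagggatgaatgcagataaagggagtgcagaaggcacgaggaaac
CXCL8: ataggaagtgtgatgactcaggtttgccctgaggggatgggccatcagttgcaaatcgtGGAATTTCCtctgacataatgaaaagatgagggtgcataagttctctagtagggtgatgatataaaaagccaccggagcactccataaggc

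The element was present in all 6 CXC promoters and in neither the CCL3 nor the CCL20 entry, and it was chosen after these sequences had been seen. Both strands were searched. Among the 300-base promoters of 27305 genes, 0.472% held it. It started 78 bases before the start site in CXCL1 and CXCL3 (positions -78 to -70), 77 bases in CXCL2 (-77 to -69), 90 in CXCL5 (-90 to -82), 89 in CXCL6 (-89 to -81) and 91 in CXCL8 (-91 to -83). The broader κB consensus was taken as GGGRNWYYCC, where R is A or G, N any base, W is A or T and Y is C or T. It matched the CXCL1, CXCL2, CXCL3, CXCL5, CXCL6 and CCL20 promoters and 5.72% of all promoters, overlapping the shorter element in each of the 5 CXC genes. In an ungapped comparison of 124 bases placed on the element, CXCL1 and CXCL3 were identical at 114 positions (91.9%) and CXCL5 and CXCL6 at 111 (89.5%). CXCL1 and CXCL2 matched at 88, but their elements started 78 and 77 bases before the start site. Bases between the element and the start site were therefore partly out of register for this pair, and the 88 understates their likeness. Since these paralogs are similar, reads shared between them may have been split or discarded by the authors' mapping.

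TWEAK raised 5 of the 8 chemokines tested in control cells, and none fell. The raised genes were the neutrophil attractants CXCL2, CXCL3, CXCL5 and CXCL8 and the macrophage chemokine CCL3, while CCL2, CCL5 and CCL20 were not called. Of all genes tested, 1.55% were called higher and 1.53% lower. In bulk RNA, fewer cells of a type and less RNA per cell cannot be told apart, and since the labels do not say how the replicate cultures were separated, the p-values measure the spread between these libraries. CXCL2 was at 7.30, 7.16 and 9.56 CPM in the untreated libraries and at 25.4, 32.3 and 41.2 CPM with TWEAK, a 4.12-fold rise (log2 fold change 2.04, SE 0.25, adjusted p = 0.00073 by edgeR). CXCL3 went from 1.60, 2.03 and 2.66 CPM to 8.79, 10.2 and 17.6 CPM, a 5.82-fold rise (log2 2.54, SE 0.33, adjusted p = 0.0011). CXCL5 went from 0.799, 1.20 and 0.688 CPM to 5.49, 5.18 and 8.22 CPM (log2 2.81, SE 0.27, adjusted p = 0.00019). For each of these CXC genes the lowest TWEAK library lay above the highest untreated library. CXCL8, also known as IL-8, was at 6.15, 6.52 and 4.78 CPM without TWEAK and at 16.3, 14.4 and 25.2 CPM with it (log2 1.68, SE 0.23, adjusted p = 0.0017). CCL3, a ligand of CCR1, showed the steepest rise among the 5, from 0.313, 0.553 and 0.313 CPM to 3.26, 3.88 and 4.22 CPM (log2 3.25, SE 0.34, adjusted p = 0.00030). The groups did not overlap for these 5 genes, as was the case for 11.0% of all genes tested in this direction. TWEAK replicate 3 was the highest library of its group for all 5, and the 5 calls held without it, with log2 fold changes of 1.84 for CXCL2, 2.17 for CXCL3, 2.56 for CXCL5, 1.39 for CXCL8 and 3.16 for CCL3. CCL3 overlaps an antisense gene and has a near-identical copy, CCL3L3, with which reads could be shared.

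CCL2, the monocyte attractant, was not called, with 4.52, 5.07 and 5 CPM in untreated and 4.27, 3.63 and 4.77 CPM in TWEAK-treated cells (log2 fold change -0.20, SE 0.25, adjusted p = 0.81 by edgeR). CCL20, the ligand of CCR6, was detected at 0.188 to 0.277 CPM untreated and 0.250 to 0.359 CPM with TWEAK (log2 0.49, SE 0.44, adjusted p = 0.71), and the groups overlapped. CCL5, also known as RANTES, had counts of 0, 1 and 0 in untreated and 0, 15 and 11 in TWEAK-treated libraries, so that one TWEAK library did not show it at all. Its ratio over the summed counts was 23.3 (95% exact counting interval 3.83 to 956) and its adjusted p was 0.15. CCL5 was called without TWEAK replicate 1 (adjusted p = 0.048), the library with no count. CXCL1 had 3 counts in the untreated and 7 in the TWEAK-treated libraries, a ratio of 2.09 (0.478 to 12.5), and 7 and 0 counts in the ETS1 KD and NFKB2 KD libraries. The 0 allows up to 3 counts, or 0.0288 CPM. CXCL6 had no count in any of the 12 libraries, which allows up to 0.00743 CPM over all of them. These intervals and limits cover counting error only.

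**Figure D1:**
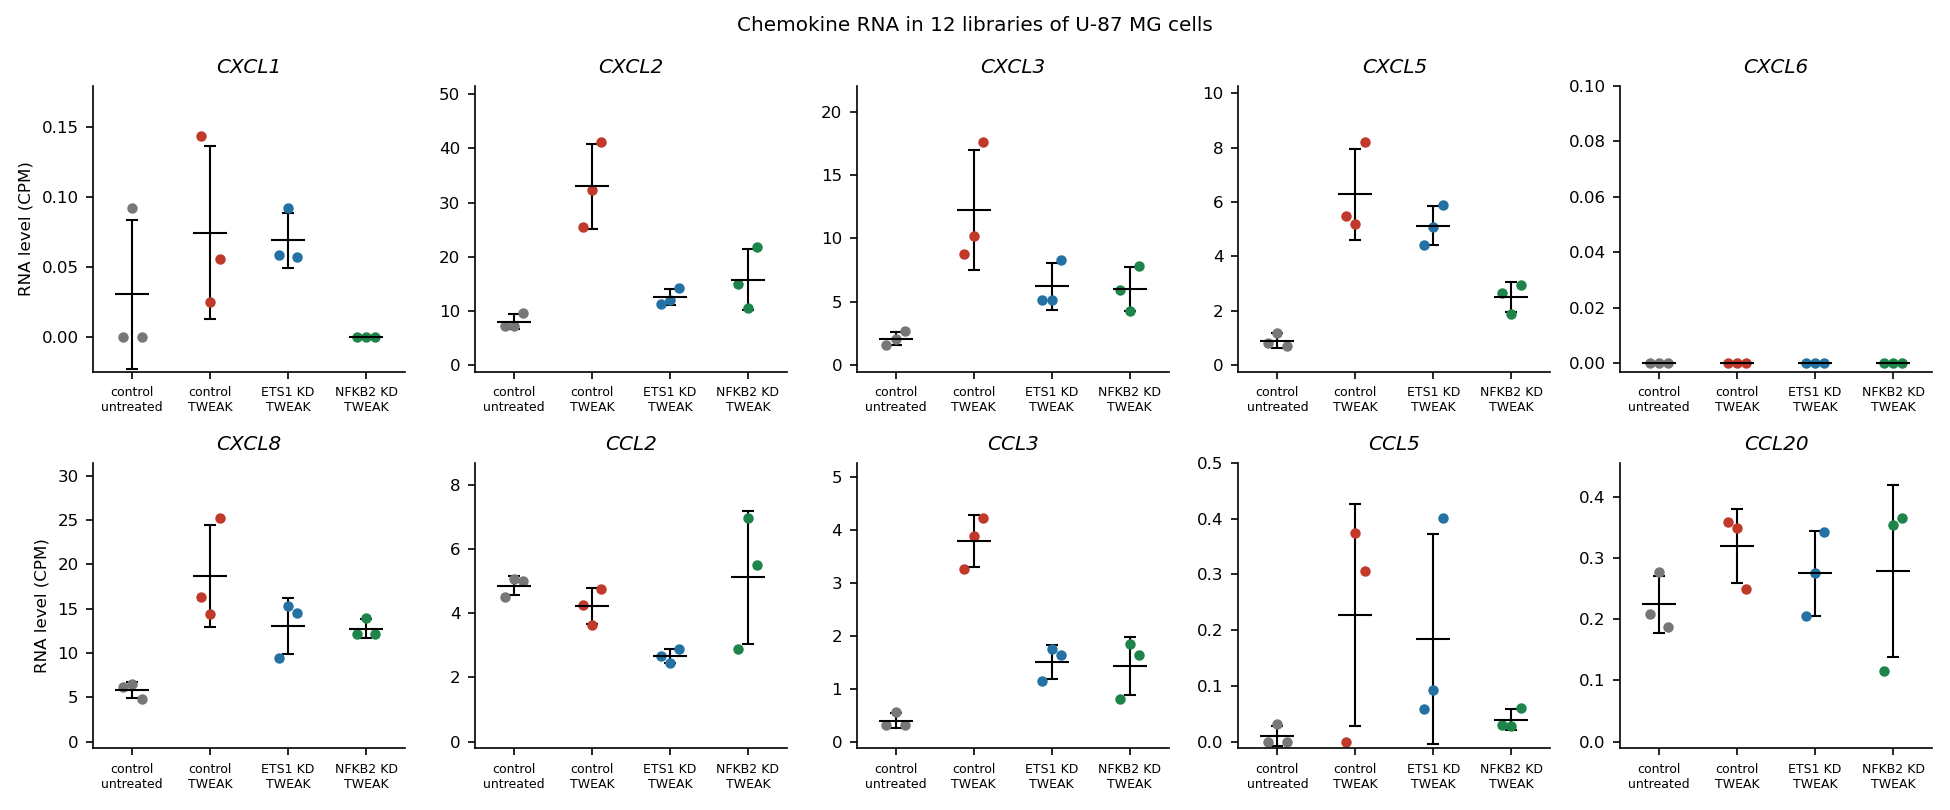
RNA level of each of the 10 chemokines (CPM, linear axis, a separate scale for each gene) in 12 libraries. Dots are single libraries, bars the mean ± SD of 3. The TWEAK-treated controls lay above all untreated controls for CXCL2, CXCL3, CXCL5, CXCL8 and CCL3, and CXCL6 was at 0 throughout.

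TPM divide by the joined length of all annotated exons of a gene (GENCODE v44). On this scale CXCL2 was the most abundant chemokine in TWEAK-treated control cells, at 89.8 ± 24.7 TPM (SD, n = 3). It was followed by CXCL8 at 27.4 ± 9.39 TPM, CXCL3 at 21.0 ± 8.93 TPM, CXCL5 at 9.83 ± 2.95 TPM, CCL3 at 9.63 ± 1.57 TPM and CCL2 at 8.28 ± 1.31 TPM. CXCL2 stood apart from CXCL8 by more than their SDs, and from CXCL8 down to CCL2 the mean ± SD ranges of neighbours in this order overlapped. CCL20, CCL5 and CXCL1 stayed at or below 0.754 TPM on average. In untreated cells the order was CXCL2 at 21.8 ± 4.06 TPM, CCL2 at 9.57 ± 0.722 TPM, CXCL8 at 8.54 ± 1.24 TPM and CXCL3 at 3.60 ± 0.979 TPM, with CXCL5 and CCL3 at 1.40 and 1.00 TPM. The ranges of CCL2 and CXCL8 overlapped there too. On this scale CCL2 was thus among the most abundant chemokines without TWEAK and had the lowest mean of the 6 abundant ones with it. The lengths join the exons of all transcripts. For CXCL3 and CCL2 they equal the whole gene, at 2219 and 1935 bases, so the order between genes depends on them.

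In TWEAK-treated cells, ETS1 KD lowered 2 of the 8 chemokines, CXCL2 and CCL3, and raised none, with 1.13% of all genes called lower and 0.255% higher. These were 43 genes higher and 191 lower (18.4% higher), and 146 and 355 (29.1% higher) after a correction for GC content and exon length. CXCL2 was at 11.3, 12.02 and 14.2 CPM in ETS1 KD against 25.4, 32.3 and 41.2 CPM in control cells (log2 fold change -1.40, SE 0.24, adjusted p = 0.011 by edgeR). CCL3 was at 1.14, 1.75 and 1.63 CPM against 3.26, 3.88 and 4.22 CPM (log2 -1.33, SE 0.29, adjusted p = 0.042). Both genes were lower in every KD library than in any control library, and both calls depended on single libraries. Without TWEAK control replicate 3, ETS1 KD replicate 1 or ETS1 KD replicate 2, neither was called, with adjusted p of 0.0505, 0.0669 and 0.0524 for CXCL2. When any other library was left out, CXCL2 was called and CCL3 was not (adjusted p 0.068 to 0.19 over the 6). The log2 fold changes ranged from -1.55 to -1.21 for CXCL2 and from -1.46 to -1.18 for CCL3. CXCL3 was at 5.13, 5.18 and 8.32 CPM in ETS1 KD cells against 8.79, 10.2 and 17.6 CPM (log2 -0.98, SE 0.30, adjusted p = 0.17), and CCL2 was at 2.67, 2.45 and 2.89 CPM against 4.27, 3.63 and 4.77 CPM (log2 -0.66, SE 0.26, adjusted p = 0.31). Neither was called, although the groups did not overlap. CXCL3 was called with the replicate number as a block (adjusted p = 0.015), with that block and the GC and length correction together (0.0060), and without the filter on low counts (0.00036, all by edgeR). In all, 4 chemokines were lower in each of the 3 KD libraries than in each control, as were 10.8% of all genes tested. CXCL5 (4.43 to 5.89 CPM against 5.18 to 8.22 CPM, log2 -0.29, SE 0.24) and CXCL8 (9.44 to 15.3 CPM against 14.4 to 25.2 CPM, log2 -0.51, SE 0.22) overlapped with the controls and were not called (adjusted p = 0.75 and 0.38). CCL5 and CCL20 were at log2 -0.37 (SE 0.81) and -0.21 (SE 0.43).

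NFKB2 KD in TWEAK-treated cells called none of the 8 chemokines with edgeR, although 6 of them (CXCL2, CXCL3, CXCL5, CXCL8, CCL3 and CCL5) had an unadjusted p under 0.05. This comparison called 5 genes in all with edgeR, 0.0237% of those tested being lower and 0.00592% higher. The 4 lower genes included NFKB2 itself, and scaling by library totals alone left 2 lower and 1 higher. CXCL5 was at 2.66, 1.88 and 2.95 CPM in NFKB2 KD against 5.49, 5.18 and 8.22 CPM in control cells (log2 fold change -1.34, SE 0.25, adjusted p = 0.19 by edgeR). CCL3 was at 0.811, 1.85 and 1.64 CPM against 3.26, 3.88 and 4.22 CPM (log2 -1.40, SE 0.29, adjusted p = 0.32). CXCL2 was at 15.03, 10.6 and 21.8 CPM against 25.4, 32.3 and 41.2 CPM (log2 -1.06, SE 0.24, adjusted p = 0.41). These genes, together with CXCL3 (log2 -1.03, SE 0.30, adjusted p = 0.77) and CXCL8 (log2 -0.55, SE 0.22, adjusted p = 1.0), were lower in every KD library than in any control library. These were 5 of 8 chemokines, against 3.82% of all genes tested. They are also the 5 called with TWEAK. Both KD comparisons use the same 3 TWEAK-treated control libraries as the TWEAK comparison. The comparisons are therefore not independent, and the spread of these controls enters each of them. The calls turned on the procedure. At an unadjusted p no higher than 0.05 with a change of 1.5-fold or more in the edgeR fit, CXCL2, CXCL3, CXCL5, CCL3 and CCL5 passed, all lower. Of all genes tested, 0.989% passed lower at this threshold (167 genes), and 212 genes passed higher. CXCL2, CXCL5 and CCL3 were called with DESeq2 (0.154% of all genes lower). Without the filter on low counts, CXCL2, CXCL3, CXCL5 and CCL3 were called (0.0941% lower). CCL2 went the other way in the mean, with 2.90, 6.96 and 5.50 CPM (log2 0.28, SE 0.25, adjusted p = 1.0), and overlapped with the controls. CCL5 had 4 counts over the 3 NFKB2 KD libraries against 26 in the controls, a ratio of 0.154 (95% exact counting interval 0.0390 to 0.443), but one control library had none.

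**Figure D2:**
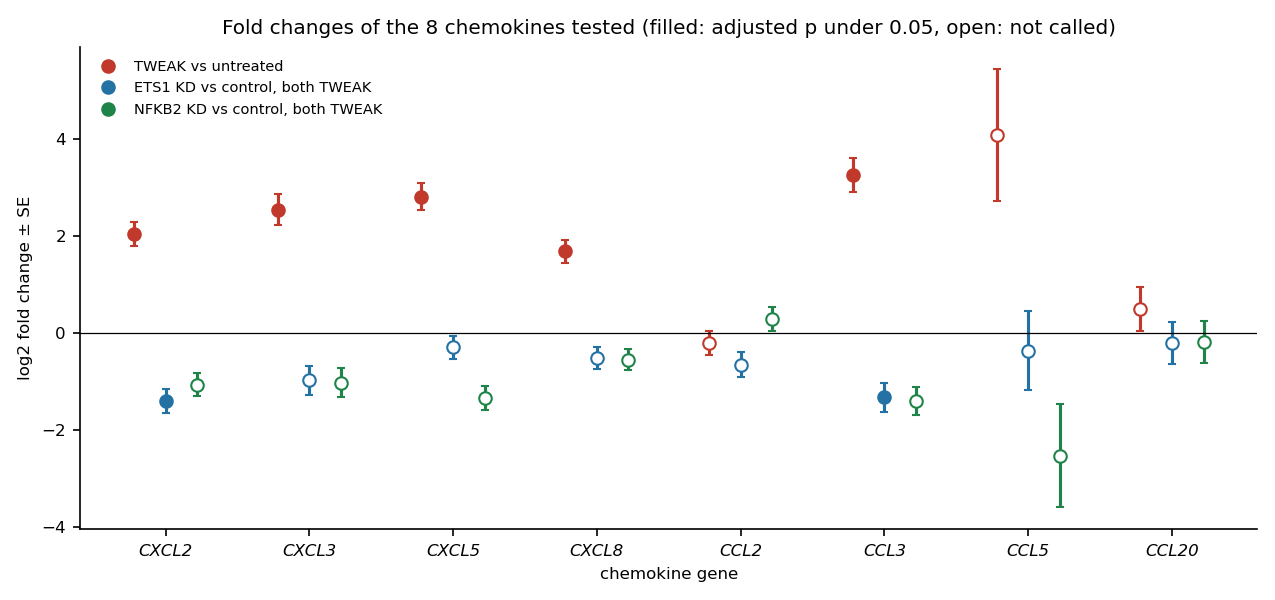
Log2 fold change ± SE (edgeR) of the 8 chemokines tested, for TWEAK against untreated in control cells and for each KD against control with TWEAK. Filled symbols have an adjusted p under 0.05. CXCL2, CXCL3, CXCL5, CXCL8 and CCL3 are filled for TWEAK, and CXCL2 and CCL3 for ETS1 KD.

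The KDs were also compared with each other. None of the 8 chemokines differed between ETS1 KD and NFKB2 KD cells at the threshold, where 0.533% of all genes were higher and 1.4% lower in ETS1 KD (90 and 237 genes, and 63 and 356 when libraries were scaled by their totals alone). The nearest were CXCL5, with 4.43, 5.09 and 5.89 CPM in ETS1 KD and 2.66, 1.88 and 2.95 CPM in NFKB2 KD cells (log2 fold change 1.04, SE 0.25, adjusted p = 0.052 by edgeR), and CCL2, with 2.67, 2.45 and 2.89 CPM and 2.90, 6.96 and 5.50 CPM (log2 -0.94, SE 0.26, adjusted p = 0.089). The libraries did not overlap for either gene, for CCL2 by a margin of 2.89 to 2.90 CPM, and both, the 2 chemokines with an unadjusted p under 0.05, were called with DESeq2 (adjusted p = 0.0036 and 0.015). For CCL2 the call was also made without NFKB2 KD replicate 1, the lowest of its group (log2 -1.26, adjusted p = 0.0054). CXCL3, CXCL8 and CCL3 were at log2 0.05 (SE 0.30), 0.04 (SE 0.23) and 0.07 (SE 0.30), and their signs changed under other scalings or without single libraries.

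Both KD groups were then set against untreated control cells, which they share with the TWEAK comparison. In ETS1 KD cells given TWEAK, CXCL3 (log2 fold change 1.56, SE 0.33, adjusted p = 0.0074), CXCL5 (2.51, SE 0.27, adjusted p = 0.00014), CXCL8 (1.17, SE 0.23, adjusted p = 0.0057) and CCL3 (1.92, SE 0.35, adjusted p = 0.0037 by edgeR) were higher than in untreated cells. CCL2 was lower, at 2.67 against 4.86 CPM on average (log2 -0.86, SE 0.26, adjusted p = 0.043), and lost this call when any of the 6 libraries was left out (adjusted p 0.082 to 0.13). Here 6.22% of all genes were called higher and 7.61% lower (45.0% of calls higher, and 31.5% with scaling by library totals alone). CXCL2 had a log2 fold change of 0.64 (SE 0.25, adjusted p = 0.11, and 0.023 with the replicate block), with 11.3, 12.02 and 14.2 CPM against 7.16 to 9.56 CPM. In NFKB2 KD cells given TWEAK, CXCL5 (log2 1.47, SE 0.28, adjusted p = 0.034) and CCL3 (1.85, SE 0.35, adjusted p = 0.036) were higher than in untreated cells, while 0.409% of all genes were called higher and 0.196% lower. CXCL8 (1.13, SE 0.23, adjusted p = 0.052), CXCL3 (1.51, SE 0.33, adjusted p = 0.070) and CXCL2 (0.98, SE 0.25, adjusted p = 0.13) did not pass, although their KD libraries all lay above the untreated ones. With the replicate block, CXCL3 (adjusted p = 0.0034) and CXCL2 (adjusted p = 0.031) were called. The call of CXCL5 and CCL3 together was lost without untreated replicate 1, untreated replicate 3 or NFKB2 KD replicate 3, where no chemokine was called. CXCL5 alone was called without untreated replicate 2, CCL3 alone without NFKB2 KD replicate 1, and CXCL2, CXCL3 and CXCL5 without NFKB2 KD replicate 2.

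The p52 ChIP-seq lists placed strong peaks on 2 of the raised genes. A gene was counted as having a site when both libraries of a group had a peak sharing at least 1 bp with the gene or with 15 kb on either side of an annotated start site. No chemokine had a site in untreated cells, where 0.0948% of the 16873 genes tested with coordinates did. With TWEAK, 3 of the 10 chemokines had one, CXCL2, CXCL3 and CXCL8, against 13.7% of genes. Here and below, the shares of genes cover only genes that passed the filter on low counts. The 10 chemokines include CXCL1 and CXCL6, which did not pass and had no peak with any antibody. The same counts of sites therefore hold for the 8 tested. CXCL2 and CXCL3 were the chemokines with a peak at the promoter (from 1000 bp before to 100 bp after a start site) in both TWEAK libraries, as had 3.89% of genes. The lists differ in size, with 714 and 452 peaks in untreated and 3579 and 11761 in TWEAK-treated cells, so a gene without a listed peak may still be bound. In TWEAK replicate 2, the largest list, taken alone, 6 chemokines had a peak, and in replicate 1 the same 3 as in both. The share of all genes was not computed for single lists, so the 13.7% does not apply to these counts.

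At the CXCL2 promoter, p52 peaks had a fold enrichment over the authors' background of 20.4 (rank 311 of 3579 by q-value) and 40.1 (rank 341 of 11761) in the TWEAK-treated controls. ETS1 KD cells kept a peak there in all 4 libraries, with 19.0 and 29.0 for guide 1 and 30.5 and 35.9 for guide 2. The summits lay 55 to 73 bases before the start site, and the strongest, at chr4:74099267, was 0.5 bases from the centre of the κB consensus match, inside the capitals shown above. At CXCL3 the enrichment was higher than at CXCL2 in each library, at 26.3 (rank 182) and 50.7 (rank 198) in TWEAK-treated controls, 20.5 and 43.5 with guide 1, and 39.6 and 39.0 with guide 2. Their summits lay 69 to 74 bases before the start site, and the strongest, at chr4:74038762, was again 0.5 bases from the centre of the match. The untreated libraries had no peak at either gene, and the ranges of enrichment of the ETS1 KD libraries overlapped those of the control libraries. With 2 libraries a group, the smallest two-sided p of an exact permutation test is 0.333, so no test was made. Among the 2941 p52 sites found in both TWEAK libraries, 71.9% held the κB consensus and 7.79% the shorter element within 201 bases around the summit.

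The other CXC promoters with the same element differed. CXCL5 had a weak p52 peak in 1 TWEAK-treated control library (fold enrichment 4.63, rank 7095 of 11761) and in both guide 2 libraries (7.59 and 6.83), with summits 59 to 92 bases before the start site, but none with guide 1. CXCL1 and CXCL6, which were hardly or not expressed, had no p52 peak in any library. CXCL8 had no p52 peak at its promoter. Its peaks lay upstream, with summits at positions -14497 to -14460 relative to the start site, with fold enrichments of 7.68 and 16.7 in TWEAK-treated controls, 8.29 in 1 of 2 guide 1 libraries and 11.2 and 9.53 with guide 2. This site holds the element too, on the opposite strand of CXCL8, as the 71 bases around the strongest summit show (chr4:73726068-73726138, plus strand, element in capitals):
CXCL8 upstream site: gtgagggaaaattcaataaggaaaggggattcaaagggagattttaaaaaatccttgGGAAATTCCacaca

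In ETS1 KD cells, 2 chemokines had a p52 site with guide 1 (CXCL2 and CXCL3, against 6.09% of genes) and 4 with guide 2 (CXCL2, CXCL3, CXCL5 and CXCL8, against 14.0%). CXCL2 had further p52 peaks 11561 bases downstream of its start in TWEAK control replicate 2 (14.9) and in 1 guide 2 library (5.46), and at position -10249 in TWEAK control replicate 2 (5.54). CCL5, at position -9844 (5.77), and CCL20, at position +4194 (3.97), each had a single p52 peak, in the largest list only. No p52 peak was listed at CCL2 or at CCL3, the chemokine with the largest called fold change on TWEAK.

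**Figure D3:**
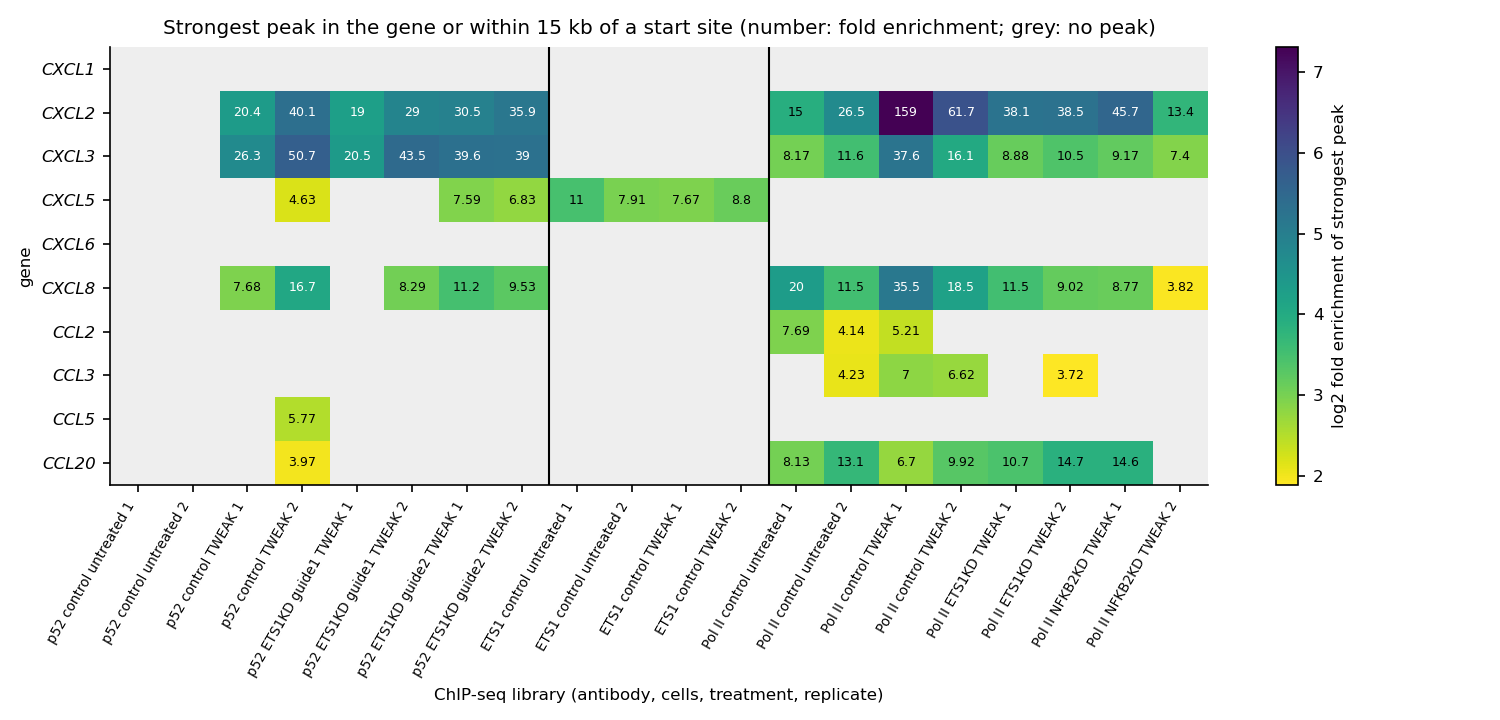
Strongest peak of each chemokine gene in each of 20 ChIP-seq libraries, as the authors' fold enrichment (number; colour on a log2 scale, grey where no peak is listed). p52 peaks at CXCL2 and CXCL3 appear in all 6 TWEAK libraries and in neither untreated library, and ETS1 peaks appear at CXCL5 alone.

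CXCL5 was the chemokine with ETS1 peaks, which were present in all 4 ETS1 libraries. Their fold enrichment was 11.0 and 7.91 in untreated and 7.67 and 8.80 in TWEAK-treated cells, so the groups overlapped. An ETS1 site by the same rule was found at 8.85% of genes in untreated and 12.5% in TWEAK-treated cells. The summits lay 176 to 252 bases downstream of the start, 3 in the first intron and 1 in the first coding exon. The 41 bases around the strongest summit on the strand of CXCL5 (chr4:73998437-73998477, minus strand) are shown because this was the one ETS1 site among the chemokines. Neither AGGAAG nor CTTCCGG, 2 motifs of the ETS type searched on both strands, was found in the 201 bases around this summit. Most ETS1 sites lacked them too, as 17.4% and 8.18% of the 1981 ETS1 sites in TWEAK-treated cells held them. Among the 300-base promoters of 27305 genes, 33.7% and 10.7% held them, so their absence does not set this site apart:
CXCL5 ETS1 site: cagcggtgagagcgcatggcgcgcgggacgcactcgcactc
CXCL5 itself had log2 fold changes of 2.81 (SE 0.27) with TWEAK and -0.29 (SE 0.24) with ETS1 KD. ETS1 ChIP-seq in KD cells was not analysed here.

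**Figure D4:**
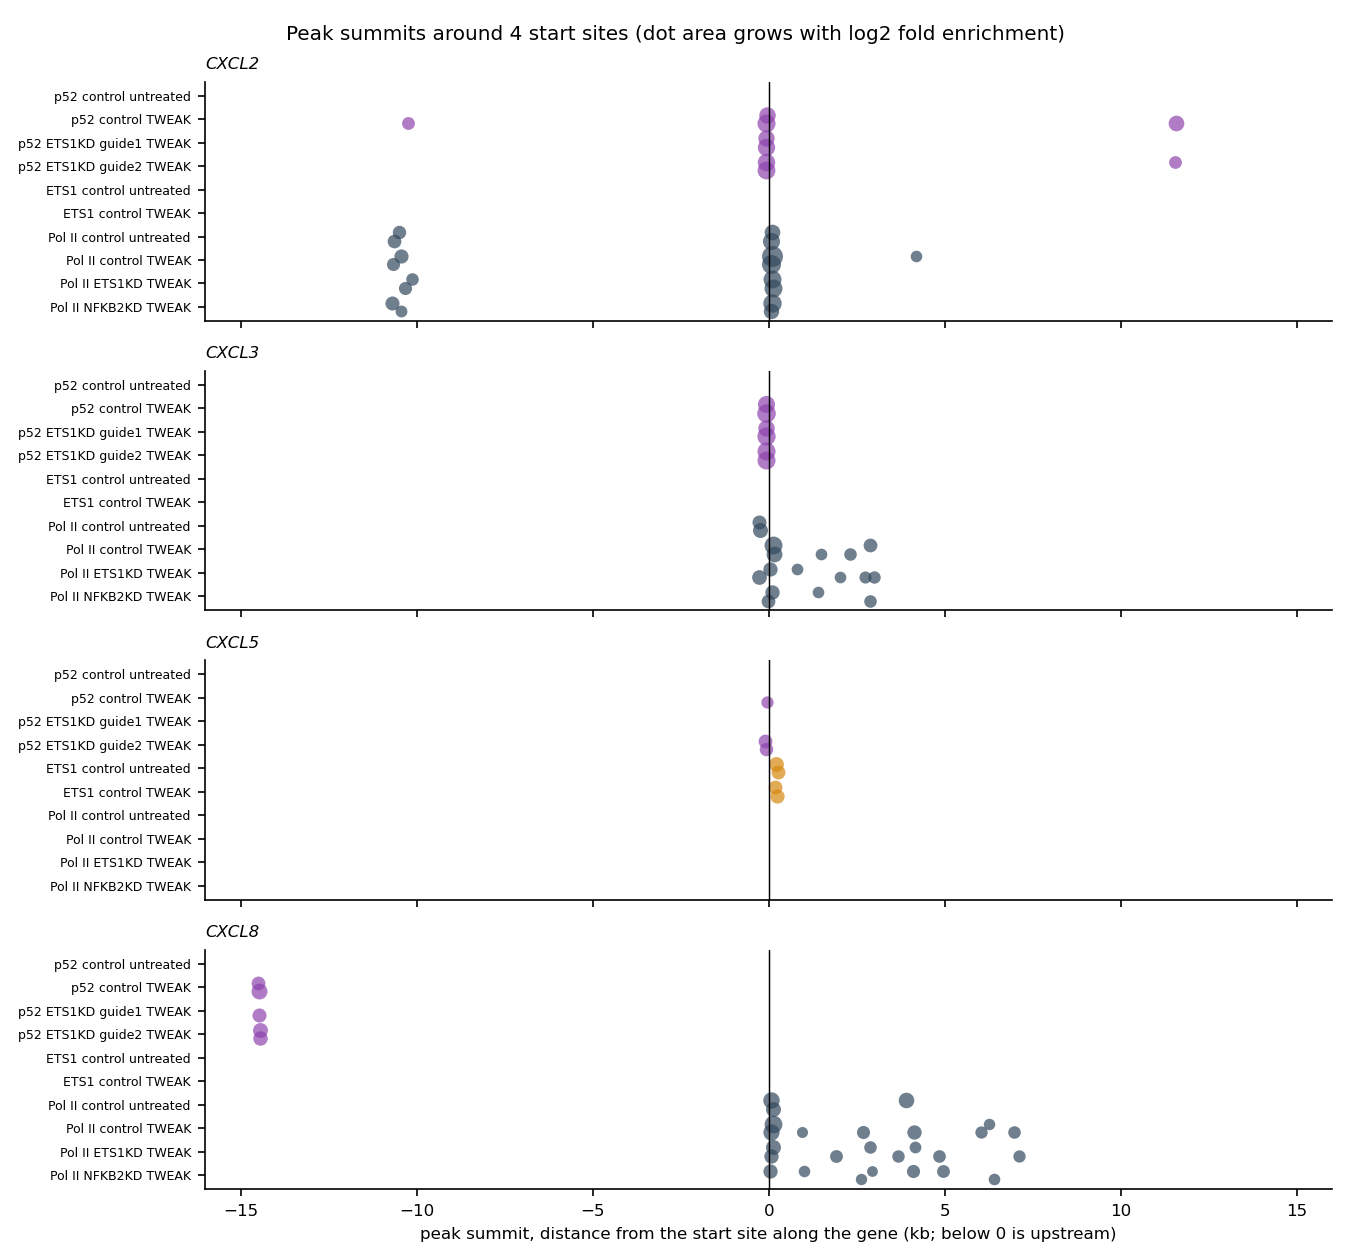
Distance of every peak summit from the MANE start site (kb along the gene) for CXCL2, CXCL3, CXCL5 and CXCL8, by ChIP-seq group, with replicates offset within a row and purple, orange and grey-blue dots for p52, ETS1 and RNA Pol II. The p52 summits of CXCL3 and the strongest ones of CXCL2 sit just before the start, and those of CXCL8 about 14 kb upstream. Weaker p52 summits of CXCL2 lie 11552 and 11561 bases downstream and at position -10249.

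RNA Pol II sites were present at 5 of the 10 chemokines in untreated cells (CXCL2, CXCL3, CXCL8, CCL2 and CCL20), against 63.5% of genes, and at 5 with TWEAK (CXCL2, CXCL3, CXCL8, CCL3 and CCL20), against 72.1%. There were 4 in ETS1 KD cells (CXCL2, CXCL3, CXCL8 and CCL20, against 65.5%) and 3 in NFKB2 KD cells (CXCL2, CXCL3 and CXCL8, against 56.0%). At the CXCL2 promoter the RNA Pol II fold enrichment was 15.01 and 26.5 in untreated, 159 and 61.7 in TWEAK-treated, 38.1 and 38.5 in ETS1 KD and 45.7 and 13.4 in NFKB2 KD cells. Both TWEAK-treated controls were above all the other libraries. At CXCL3 it was 8.17 and 11.6 untreated, 37.6 and 16.1 with TWEAK, 8.88 and 10.5 in ETS1 KD and 9.17 and 7.40 in NFKB2 KD cells, again highest in both TWEAK-treated controls. The share of the CXCL3 gene covered by RNA Pol II peaks was 14.3% and 15.1% untreated, 88.2% and 39.9% with TWEAK, 42.6% and 46.5% in ETS1 KD and 46.1% and 17.2% in NFKB2 KD cells. The CXCL2 gene was covered completely in all 8 libraries, each of which also had a weaker peak about 10 kb upstream (4.12 to 8.61).

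At CXCL8 the untreated and TWEAK-treated libraries overlapped, with promoter fold enrichments of 20.01 and 11.5 against 35.5 and 18.5. The ETS1 KD libraries were at 11.5 and 9.02, and of the NFKB2 KD libraries one was at 8.77 and the other had no promoter peak, only weaker ones within or beyond the gene. That library, NFKB2 KD replicate 2, also had the smallest RNA Pol II list, with 11175 peaks. CCL3 had a promoter peak in both TWEAK-treated libraries (6.998 and 6.62) and in 1 of 2 untreated libraries (4.23), and none in the KD libraries, where a single ETS1 KD library had a weak peak within the gene (3.72). CCL2 had promoter peaks in both untreated libraries (7.69 and 4.14), in 1 of 2 TWEAK-treated libraries (5.21, between the untreated values) and in no KD library. CCL20 had no promoter peak but a region of RNA Pol II around its 3′ end in 7 of 8 libraries, at up to 14.7. None was listed at CXCL1, CXCL5, CXCL6 or CCL5, so the rise of CXCL5 RNA had no listed RNA Pol II peak beside it. These enrichments depend on the depth of each library and its input, which is unknown, and none of the differences was tested.

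**Figure D5:**
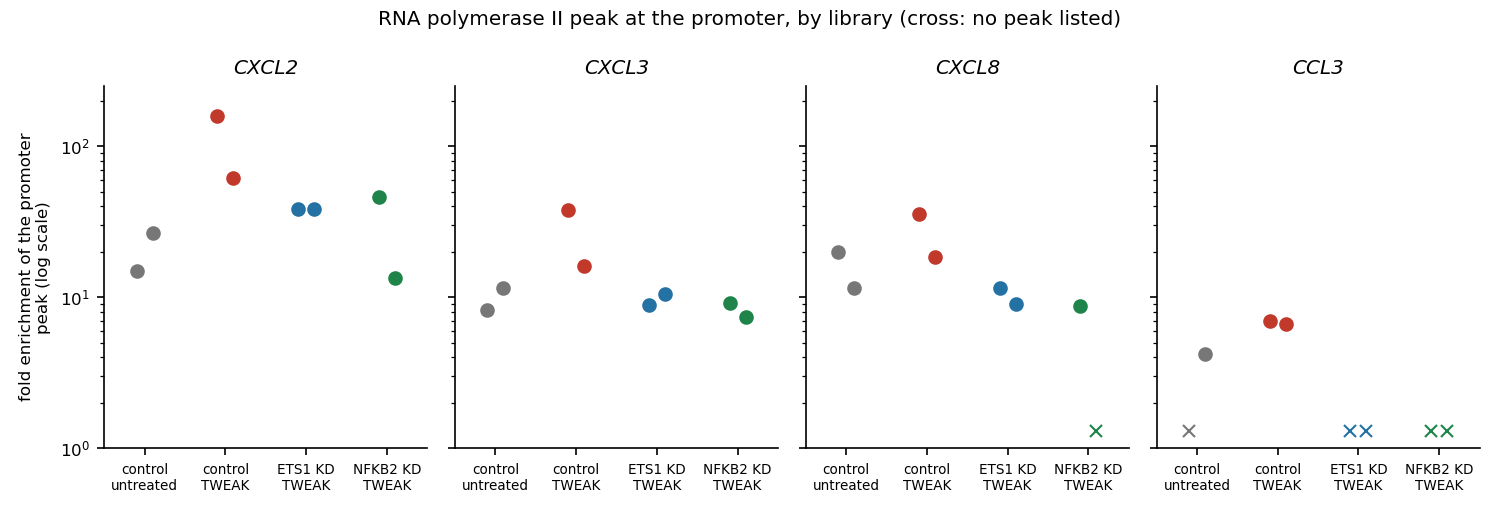
Fold enrichment (log axis) of the RNA Pol II promoter peak at CXCL2, CXCL3, CXCL8 and CCL3 in each of 8 libraries, 2 a group. Crosses near the base mark libraries with no listed promoter peak. The TWEAK-treated controls (159 and 61.7 for CXCL2) are the highest for CXCL2 and CXCL3.

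The rest of the chemokine system was mostly silent in these cells. Of 29 other chemokines, 14 had no count in any library and 2 passed the filter, CXCL14 and CCL26. Neither was called with TWEAK or with either KD against the TWEAK-treated control. The summed level of the 29 was 9.90 to 11.3 CPM in untreated and 6.44 to 7.12 CPM in TWEAK-treated controls. It was 6.16 to 9.24 CPM in ETS1 KD and 6.43 to 10.4 CPM in NFKB2 KD cells, and this sum was not tested. CCL26, an eotaxin, was lower in ETS1 KD than in NFKB2 KD cells (0.256 against 0.670 CPM, log2 fold change -1.38, adjusted p = 0.043 by edgeR) and than in untreated cells (log2 -1.20, adjusted p = 0.025). Of 22 chemokine receptors, 7 had no count and 3 were tested, with none called in any of the 6 comparisons. CCR1, a receptor of CCL3 and CCL5, was at 8.88 CPM in untreated and 5.33 CPM in TWEAK-treated cells on average. CXCR1 and CCR6 had no counts, and CXCR2 and CCR2 were each at or below 0.134 CPM, so the receptors of the CXC chemokines raised by TWEAK were at or near 0 here.

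NF-κB subunits and feedback genes rose with TWEAK in 9 of 15 cases, with none lower, against 1.55% of all genes called higher. The largest were BIRC3, an inhibitor of apoptosis (log2 fold change 5.71, SE 0.42), TRAF1 (3.06, SE 0.31), NFKB2 (2.35, SE 0.18) and NFKBIE, which encodes an IκB (2.22, SE 0.17). In the ETS1 KD comparison, where 1.13% of all genes were called lower, NFKBIZ was lower (-1.42, SE 0.22, adjusted p = 0.0054 by edgeR) and the other 14 were not called. In NFKB2 KD cells, NFKB2 (-1.67, SE 0.18) and TRAF1 (-2.08, SE 0.30, adjusted p = 0.039) were lower and 13 were not called, against 0.0237% of all genes called lower. Inflammatory cytokines rose with TWEAK in 7 of 14 cases tested, led by IL32 (3.89, SE 0.35), IL1B (2.38, SE 0.24), TNFSF10, which encodes TRAIL (1.70, SE 0.29), and IL24 (1.44, SE 0.17), with none lower. ETS1 KD lowered 3 of the 14, IL24 (-2.31, SE 0.17), IL6 (-2.18, SE 0.20) and IL1A (-1.30, SE 0.22), and NFKB2 KD none. Between the KDs, BIRC3 (1.86, SE 0.34) and NFKB2 (1.39, SE 0.17) were higher in ETS1 KD cells, IL24 and IL6 were lower (-1.85, SE 0.17 and -1.21, SE 0.21) and IL1B was higher (1.09, SE 0.23). There 0.533% of all genes were called higher and 1.4% lower. Against untreated cells, 9 NF-κB genes and 7 cytokines were higher in ETS1 KD cells, against 6.22% of all genes. In that comparison 2 of 14 cytokines were lower, against 7.61% of all genes. In NFKB2 KD cells 3 of each list were higher, against 0.409% of all genes. The median log2 fold change with TWEAK was 2.29 for the 8 chemokines tested, 1.101 for the cytokines and 0.60 for the NF-κB genes, against 0.02 for all genes tested. With ETS1 KD it was -0.59 for the chemokines against 0.01 for all genes, and with NFKB2 KD -1.05 against -0.02.

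Since leukocytes make several of these chemokines, their markers were checked. PTPRC and AIF1, pan-leukocyte and microglial genes, were each at or below 0.064 CPM on average in every group. The summed level of the 6 leukocyte genes was 8.84 to 12.2 CPM in untreated and 14.7 to 17.5 CPM in TWEAK-treated controls, 18.4 to 19.7 CPM in ETS1 KD and 14.3 to 16.4 CPM in NFKB2 KD cells, most of it CSF1R. ITGAM rose from 0.0218 to 1.09 CPM with TWEAK (log2 5.46, adjusted p = 0.00019 by edgeR), as 1 of 4 leukocyte genes tested, against 1.55% of all genes called higher. None of 2 endothelial genes tested was called. Their part in the chemokine results was not tested.

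Profiles over the 12 libraries were compared by the root mean square (RMS) difference of log2 CPM after each gene had been centred on its own mean, for the CXC and the CC gene with the highest CPM. The genes most like CXCL2 were ALOXE3 (0.31), FBXW10B (0.35) and then its neighbour CXCL3 (0.36). For CCL2 they were IFT140 (0.18), DIRAS1 (0.18) and SLC22A18 (0.20). A smaller difference is easier to reach for a gene that varies little, as CCL2 did.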

How the data were processed

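U-87 MG cells were profiled by RNA-seq (12 libraries) and by ChIP-seq for p52, ETS1 and RNA Pol II (20 libraries). The authors deposited raw read counts per gene for RNA-seq (submitters' processing notes list STAR, featureCounts, Trimmomatic and hg38). The strand setting and annotation release of the counting are not given in the sources used here. The authors deposited 1 MACS2 narrowPeak list per ChIP-seq library, with fold enrichment as a ratio over background and p and q values as −log10. Input libraries were not analysed here, and which input served which list is not given in the sources used here, nor is ChIP-seq depth.

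Counts were tested with edgeR 4.0.16 in R 4.3.3 (TMM, filterByExpr, quasi-likelihood test, 1 model over 4 groups of 3, no covariate, Benjamini-Hochberg adjustment over 16879 genes). In the count table, 47 rows that repeated an earlier gene identifier, with 1 count in all, were left out, and the first row of each identifier was kept. DESeq2 1.42.0, other scalings and filters, a correction for GC content and exon length, leaving out single libraries and a replicate block were alternatives. The procedure was tested on simulated data. CPM are scaled by TMM, and TPM use exon lengths. Peaks within 15 kb of a start site (GENCODE v44) or at the gene were taken, and motifs were searched in RefSeq promoters. Intervals for counts are exact at 95%, a count of 0 allows 3 counts, and both cover counting error only. Of other list genes, at most 4 called genes a list were named, by size of fold change. The members and gene lists were chosen with earlier results of these data known.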

Additional observations from a re-analysis of the deposited data

How the results depend on the processing

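The 5 chemokines called with TWEAK (CXCL2, CXCL3, CXCL5, CXCL8 and CCL3) kept their direction and call under every alternative run, while the KD results depended on the procedure and its cause was not tested. The numbers of genes called were 520 for TWEAK against untreated, 234 for ETS1 KD and 5 for NFKB2 KD against control, 327 for ETS1 KD against NFKB2 KD, and 2334 and 102 for ETS1 KD and NFKB2 KD cells against untreated cells. Without the filter on low counts they were 859, 469, 87 and 781 for the first 4 comparisons and 278 for the last, with DESeq2 940, 534, 36, 817 and 318, and with unadjusted thresholds on the edgeR fit (p 0.05, fold 1.5) they were 1197, 957, 379, 1244 and 671. In the same order, chemokines called under these settings numbered 4, 3 and 5 for NFKB2 KD, 2 in each for ETS1 KD against NFKB2 KD and 5 in each for NFKB2 KD cells against untreated cells, and 4 for ETS1 KD against control with the unadjusted threshold. Scaling by library totals or requiring a CPM of 1 in 3 libraries left 3 genes in the NFKB2 KD comparison. With the 2 groups compared alone, 2, 104 and 18 genes were called for NFKB2 KD, for ETS1 KD against NFKB2 KD and for NFKB2 KD cells against untreated cells, the last with 0 chemokines. The correction for GC content and exon length gave 1026, 501, 9, 807, 3542 and 244 genes over the 6 comparisons and 1 chemokine, CXCL5, between the KDs.

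Replicate numbers are shared between groups, and the deviations of same-numbered samples correlated at -0.304 to 0.492 over 18 pairs, with 9 over 0.1. Among the 6 pairs of replicate 3 they were at 0.071 to 0.492. Pairing was taken to need every pair over 0.1, so the samples were not taken as pairs. A replicate block gave 657, 252, 4, 361, 2792 and 122 genes, and 5, 3, 0, 0, 6 and 4 chemokines, CXCL3 being the one added with ETS1 KD. The block together with the GC and length correction gave 1490, 714, 18, 1307, 4396 and 377 genes, and 6, 3, 4, 2, 7 and 5 chemokines. Between ETS1 KD and NFKB2 KD, differences near 0 changed sign, none of them called, namely CXCL3 (-0.028), CXCL8 (-0.042) and CCL3 (-0.014) with scaling by library totals, CXCL8 with the CPM minimum (-0.0058), with the correction (-0.13) and with the block and correction (-0.15), and CCL20 with the block (0.011).

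Leaving out 1 library at a time, 171 (without TWEAK replicate 3) to 405 genes were called for TWEAK, 102 (without ETS1 KD replicate 3) to 148 for ETS1 KD, 2 to 4 for NFKB2 KD, 76 (without ETS1 KD replicate 3) to 561 (without NFKB2 KD replicate 1) between the KDs, 1179 to 2109 for ETS1 KD cells and 38 to 246 for NFKB2 KD cells against untreated cells. Chemokines called ranged from 5 to 6, 0 to 1, 0 to 0, 0 to 1, 4 to 4 and 0 to 3. The log2 fold changes that crossed 0, none of them called, ranged between the KDs from -0.42 to 0.20 for CCL20, -0.25 to 0.30 for CCL3, -0.22 to 0.26 for CXCL3 and -0.11 to 0.20 for CXCL8, from -1.63 to 0.15 for CCL5 with ETS1 KD, from -0.41 to 0.20 for CCL20 and -0.011 to 0.59 for CCL2 with NFKB2 KD, and from -0.22 to 0.39 for CCL2 in NFKB2 KD cells against untreated cells. Counting a peak in either replicate, or without p52 TWEAK replicate 1, 6 chemokines had a p52 site with TWEAK in place of 3. The share of all genes was not computed for these settings. With a window of 5 kb, 2 had a p52 site with TWEAK, CXCL2 and CXCL3, and CXCL8 was lost. With guide 2 that window left 3 in place of 4, CXCL2, CXCL3 and CXCL5. The counts behind CXCL1, CXCL6, CCL5 and CCL20 limit what can be said of them.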
